A study of Mus musculus with 9 samples.

Results

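The 10 genes described here encode enzymes that make serine and that carry 1-carbon units on folate. They are Aldh1l2, Aldh1l1, Mthfd1, Mthfd1l, Mthfd2, Shmt1, Shmt2, Phgdh, Psat1 and Psph, chosen by symbol through the annotation of the array's probe sets, the groups of short probes that each measure a transcript. Each of the 10 genes had 1 probe set, and all 10 were among the 15526 genes tested of 22180 named genes. Aldh1l2 was picked because it was higher in recurrent lines than in the parental line, and the other 9 were added as its pathway. Differences from the parental line are therefore given as descriptions, with no test of the members.

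The samples are cultured mouse prostate cancer cells on 9 Affymetrix Mouse Gene 2.0 ST arrays. The AZD1208 group holds 3 lines from mice that received AZD1208, an inhibitor of the PIM kinases, and was grown without dihydrotestosterone (DHT), an androgen. The vehicle group holds 3 lines from mice that received vehicle and was likewise grown without DHT. Both groups are called recurrent here, since per the series title the tumours recurred in castrated mice. The parental MYCCaP line was grown with DHT, and its 3 arrays are labelled technical replicates, so they count as 1 sample. All groups descend from MYCCaP, a line from a prostate tumour of a mouse with a MYC transgene under a prostate-directed, androgen-responsive promoter. DHT in the medium, castration and growth in a mouse all separate the recurrent lines from the parental sample and cannot be told apart. The labels call the lines of a group biological replicates but do not say whether they came from different mice.

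Serine is made from a glycolytic intermediate in 3 steps, catalysed in order by the products of Phgdh, Psat1 and Psph. Serine hydroxymethyltransferases then move a carbon from serine to tetrahydrofolate, in mitochondria (Shmt2) or in the cytosol (Shmt1). The carbon feeds purine and thymidylate synthesis, and ALDH1L enzymes remove it as carbon dioxide, making NADPH. In mammalian cells the transcription factor ATF4 induces several genes of serine synthesis and of the mitochondrial folate branch, and MYC is also known to raise some of them.

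Values are log2 intensities as deposited, and a difference of 1 is a 2-fold change. The array medians lay between 6.22 and 6.36. AZD1208 3 had the narrowest interquartile range, 2.87, against 2.98 to 3.12 on the other arrays, and the lowest array quality weight, 0.34. Of the epithelial markers, Krt8, Krt18, Krt14, Cdh1 and Hoxb13 passed the filter on dim genes in these prostate cancer cells, whereas Epcam did not. Krt14 (-0.72), Cdh1 (-0.24) and Krt18 (-0.23) were below the parental value in all 6 recurrent lines, where 10.9% of the genes tested were. The Krt18 difference was smaller than the SD of its parental arrays (0.30). For Cdh1, AZD1208 2 (6.96) and vehicle 1 (6.86) lay above the lowest parental array (6.85). Krt8 fell on both sides, at 10.44, 8.24 and 9.17 in the AZD1208 lines and 8.53, 9.75 and 9.38 in the vehicle lines. Its parental arrays were at 9.23, 9.13 and 9.2. The mean of the 5 tested markers was lowest in AZD1208 2 (-0.42). Of 6 epithelial markers with a value, the summed log2 level was 42.3 to 44.7 in AZD1208 lines, 43.1 to 43.9 in vehicle lines and 44.31 to 45.55 on the parental arrays.

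Aldh1l2, the mitochondrial enzyme that oxidises 10-formyltetrahydrofolate, was the member with the largest difference from the parental line. Its log2 intensity was 7.69, 7.56 and 7.30 in the AZD1208 lines, 7.55, 7.38 and 7.34 in the vehicle lines, and 6.27, 6.55 and 6.06 on the parental arrays. Every recurrent line stood above every parental array, and the AZD1208 and vehicle lines overlapped. AZD1208 lines averaged 7.52 ± 0.20 (SD, n = 3), vehicle lines averaged 7.42 ± 0.11 (SD, n = 3), and the parental sample stood at 6.29. The parental technical arrays had an SD of 0.25, wider than the SD of 0.16 among the 6 recurrent lines. The recurrent mean was 1.18 above the parental value on the log2 scale, or 2.26-fold. In order of level AZD1208 and vehicle lines came first and second and differed by less than their SDs, and the parental line came last. A larger rise was seen for 1.13% of the genes tested. In bulk RNA a changed share of cells that express a gene and a changed amount of RNA per cell cannot be told apart.

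Aldh1l1, the cytosolic counterpart that catalyses the same reaction, gave no such separation. It was at 6.30, 6.71 and 6.73 in the AZD1208 lines, 6.82, 6.10 and 6.76 in the vehicle lines, and 6.19, 6.72 and 6.73 on the parental arrays. The 3 groups overlapped throughout, and the spread between technical arrays (SD 0.31) was as wide as that between the recurrent lines (SD 0.29). The recurrent minus parental difference was 0.02.

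**Figure D1:**
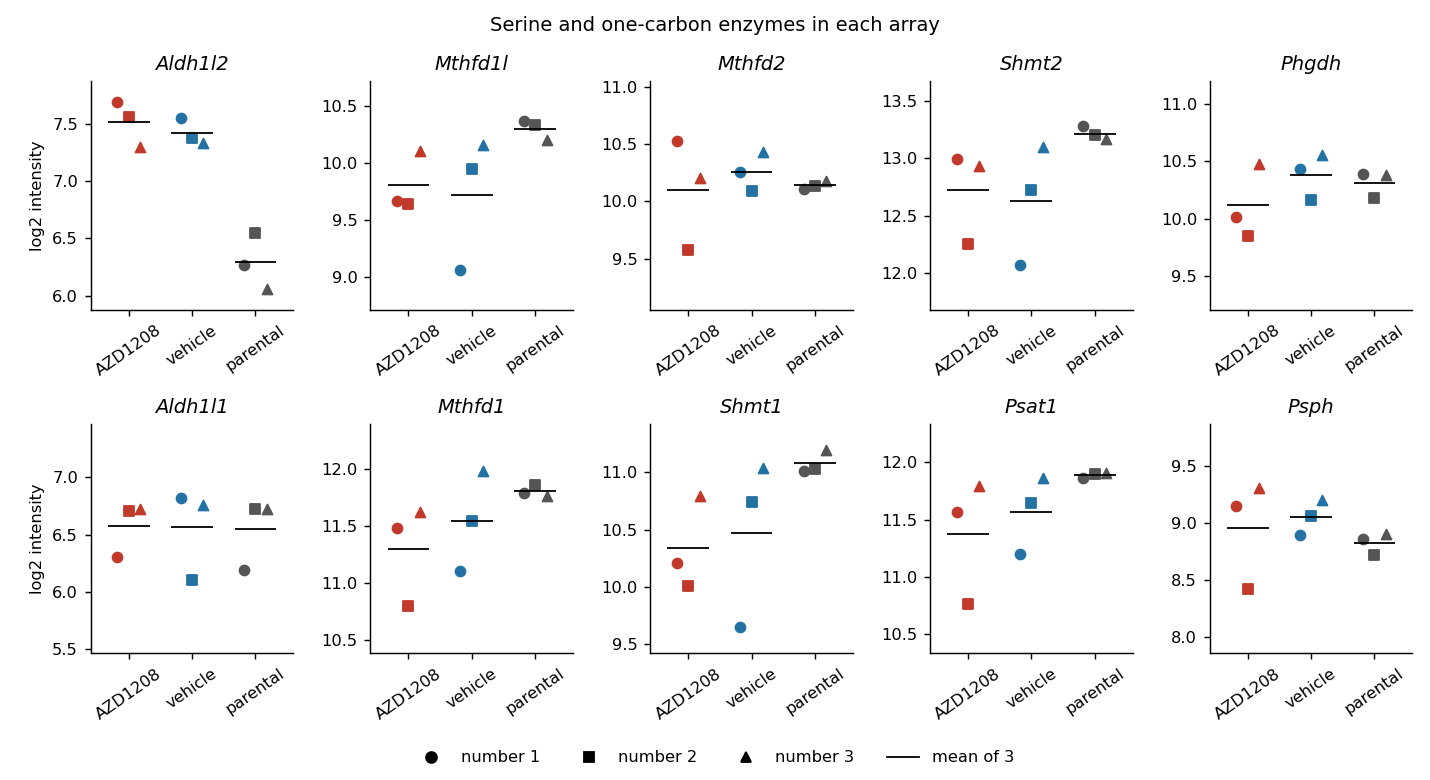
Log2 intensity (vertical axes, each spanning 2 log2 units) of the 10 enzyme genes in AZD1208 lines, vehicle lines and parental technical arrays (3 points each, marked by number), with the mean of each group as a line. Aldh1l2 lies higher in all 6 recurrent lines than on the parental arrays, and Mthfd1l, Shmt1, Shmt2 and Psat1 lie below the parental mean in all 6.

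The serine hydroxymethyltransferases went the other way. Shmt1 was at 10.21, 10.01 and 10.79 in the AZD1208 lines, 9.65, 10.74 and 11.04 in the vehicle lines, and 11.01, 11.03 and 11.19 on the parental arrays. Vehicle 3 reached the parental range and the other 5 lines lay below it. Its recurrent mean was 0.67 below the parental value on the log2 scale (-0.67), or 1.59-fold lower. Shmt2 was at 12.99, 12.25 and 12.94 in the AZD1208 lines, 12.07, 12.72 and 13.10 in the vehicle lines, and 13.28, 13.20 and 13.17 on the parental arrays. All 6 lines were under all 3 arrays, with the gap widest in vehicle 1 (-1.15) and AZD1208 2 (-0.97) and least in vehicle 3 (-0.12). The mean difference was -0.54, or 1.45-fold lower.

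The genes of the MTHFD family differed among themselves. Mthfd1l, the mitochondrial enzyme that releases formate, was at 9.67, 9.64 and 10.11 in the AZD1208 lines, 9.06, 9.95 and 10.15 in the vehicle lines, and 10.37, 10.33 and 10.20 on the parental arrays. All 6 lines again lay under all 3 parental arrays, vehicle 1 furthest, and the mean difference was -0.54 (1.45-fold lower). Mthfd1, the trifunctional cytosolic enzyme, was at 11.48, 10.80 and 11.62 in the AZD1208 lines, 11.11, 11.54 and 11.98 in the vehicle lines, and 11.79, 11.86 and 11.76 on the parental arrays. It was lower in 5 of 6 lines and above the parental arrays in vehicle 3 (mean difference -0.38). Mthfd2, the mitochondrial dehydrogenase and cyclohydrolase, was at 10.53, 9.57 and 10.21 in the AZD1208 lines, 10.26, 10.09 and 10.43 in the vehicle lines, and 10.11, 10.13 and 10.18 on the parental arrays. Its lines fell on both sides of the parental value, with AZD1208 2 alone more than 0.5 below, and the mean difference was 0.04.

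Of the serine synthesis genes, Psat1, the phosphoserine aminotransferase, was at 11.57, 10.76 and 11.79 in the AZD1208 lines, 11.20, 11.64 and 11.86 in the vehicle lines, and 11.86, 11.90 and 11.91 on the parental arrays. Vehicle 3 and AZD1208 3 lay within 0.1 of the parental mean, and the mean difference of -0.42 came mostly from AZD1208 2 (-1.13) and vehicle 1 (-0.69). Phgdh, the dehydrogenase that opens the pathway, was at 10.01, 9.85 and 10.48 in the AZD1208 lines, 10.43, 10.16 and 10.55 in the vehicle lines, and 10.39, 10.18 and 10.38 on the parental arrays. It had 3 lines on either side of the parental value (mean difference -0.07). Psph, the phosphatase of the last step, was at 9.15, 8.42 and 9.30 in the AZD1208 lines, 8.89, 9.06 and 9.20 in the vehicle lines, and 8.86, 8.72 and 8.90 on the parental arrays. It was above the parental value in 5 of 6 lines (mean difference 0.18), AZD1208 2 being the exception.

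In all, 1 of 10 members was above the parental value in 6 of 6 lines, where 11.8% of the genes tested were, and 4 were below it in 6 of 6 lines (Mthfd1l, Shmt1, Shmt2 and Psat1), where 10.9% of the genes tested were. These shares are given beside counts from the contrast that supplied Aldh1l2, and they moved with single lines. Without AZD1208 3 they were 19.4% above and 22.3% below, and without vehicle 3 the share below was 16.6% and 5 members were below, Mthfd1 being the one added. The median difference was -0.22 over the members and -0.02 over all genes tested. Psat1 was no longer below in 6 of 6 lines after quantile normalization, and Shmt1 was not when each line had to lie under all 3 parental arrays. With AZD1208 2 left out, Psph joined Aldh1l2 above the parental value.

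The comparison that did not choose the members asks whether lines from mice given AZD1208 differ from vehicle lines. None of the 10 members passed, and the groups overlapped for each of them. With limma's moderated test, 0 of 15526 genes (0%) had an adjusted p under 0.05, and 80 had an unadjusted p under 0.05 (168 with the replicate number as a block, also with 0 called). The 80 are fewer than evenly spread p-values would give, so the lack of calls does not show that the groups are alike. The count under 0.05 was 921 with array quality weights and 59 to 395 with single lines left out, including 386 without AZD1208 3 and 395 without vehicle 1, and 0 genes were called in each of these fits. Aldh1l2 differed by 0.10 (SE 0.16, 95% interval -0.29 to 0.48) and Phgdh, the member with the smallest unadjusted p (0.239), by -0.27 (SE 0.21, interval -0.76 to 0.22). Both had a limma adjusted p = 1. The other 8 differences lay between -0.24 for Mthfd1 and 0.09 for Shmt2, each smaller than its SE. The intervals reach -1.03 for Shmt1 and 0.82 for Shmt2, so with 3 lines a group differences up to these values were not excluded in these genes. Groups without overlap made up 1.4% of the genes tested with AZD1208 higher and 1.96% with AZD1208 lower, and included no member.

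**Figure D2:**
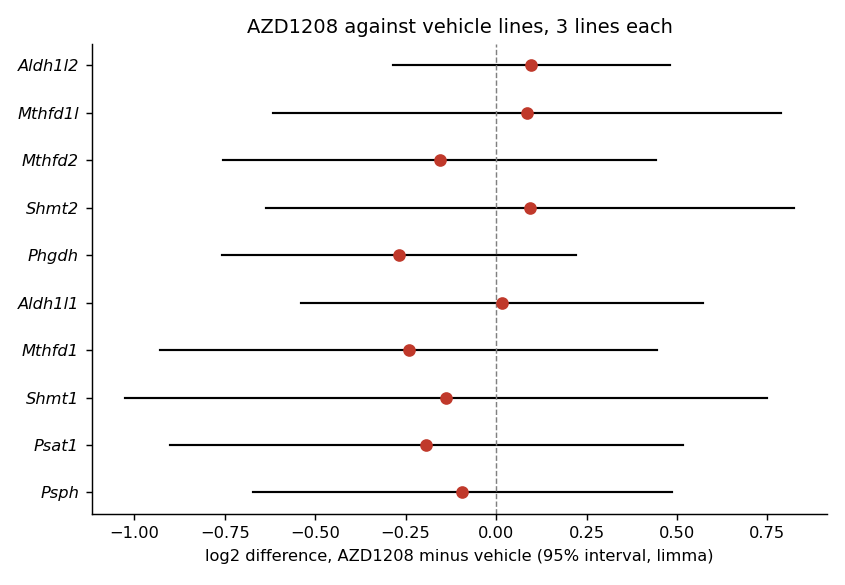
Difference in log2 intensity between AZD1208 and vehicle lines (3 each) for the 10 enzyme genes, with points for the fitted difference and bars for the 95% interval from limma. Every interval includes 0, and that of Aldh1l2 (-0.29 to 0.48) is the narrowest.

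Within each group the lines were spread widely. Averaged over the 9 members other than Aldh1l2, the difference from the parental value was -0.24, -0.68 and -0.02 in the AZD1208 lines and -0.51, -0.23 and 0.11 in the vehicle lines. AZD1208 2 and vehicle 1 were lowest, and vehicle 3 and AZD1208 3 highest. Shmt1 had the widest range, 1.39 log2 units between vehicle 1 and vehicle 3, and its SD among lines (0.53) exceeded that of 92.7% of the genes tested. The SD of Aldh1l2 among lines exceeded that of 20.7% of genes.

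Over the 6 recurrent lines, Mthfd1 and Psat1 followed each other with Pearson r = 0.967 and Spearman rho = 1, and so did Mthfd1l and Shmt1 with r = 0.959 and rho = 1. In both pairs the exact permutation p was 0.00139 for r, the smallest 6 lines can give, and 0.00278 for rho. Adjusted over the 36 pairs of these 9 genes, p was 0.025 for r in both pairs and 0.05 for rho, both by the exact permutation test. These tests shuffle all 6 lines freely, without regard to group or replicate number, and the 8 permutations within same-numbered pairs could not go below p = 0.125. With lines shuffled freely, 2 of the 36 pairs had an adjusted p under 0.05 for r and 0 had for rho, and 10 had an unadjusted p under 0.05 for r. Both calls were lost after quantile normalization (smallest adjusted p = 0.0667, exact permutation test) and after centring arrays on their median (0.05). Without the 2 lines farthest from the median of the first gene, r was 0.992 for Mthfd1 with Psat1 and 0.959 for Mthfd1l with Shmt1. As a description, r was above 0 in 29 of the 36 pairs (80.6%) and in 51.4% of all pairs of genes tested. The 7 pairs below 0 all held Aldh1l1, which was above 0 with Phgdh alone, and the 28 pairs without Aldh1l1 were above 0 as deposited and under both of these scalings. Pearson r was above 0.8 in 30.6% of the 36 pairs and in 5.67% of all pairs of genes tested. The pairs of all genes were not matched to the members in log2 level or in SD among lines.

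No test linked Aldh1l2 to the other members across the lines. Its r with the other 9 members was below 0 for all 9, from -0.779 with Shmt1 to -0.014 with Mthfd2, with a median of -0.587, where the median over all 15525 other genes was -0.184 and 60.8% of them were below 0. For Mthfd2 the sign turned after quantile normalization (0.185) and after centring (0.096). With Shmt1 rho was -0.714, and the exact permutation p was 0.0903 for r and 0.136 for rho. After adjustment over the 9 pairs no exact permutation p fell under 0.399 for r or 0.245 for rho. With AZD1208 1 and AZD1208 3 left out, the lines farthest from the Aldh1l2 median, r with Shmt1 was -0.96 and r with Aldh1l1 turned to 0.443, over 4 lines. The order of Aldh1l2 in the lines was AZD1208 1, AZD1208 2, vehicle 1, vehicle 2, vehicle 3 and AZD1208 3, a range of 0.39 log2 units. Its SD among the lines (0.16) was smaller than that of the parental technical arrays (0.25). Differences between lines and technical spread therefore cannot be told apart in its order or its r.

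**Figure D3:**
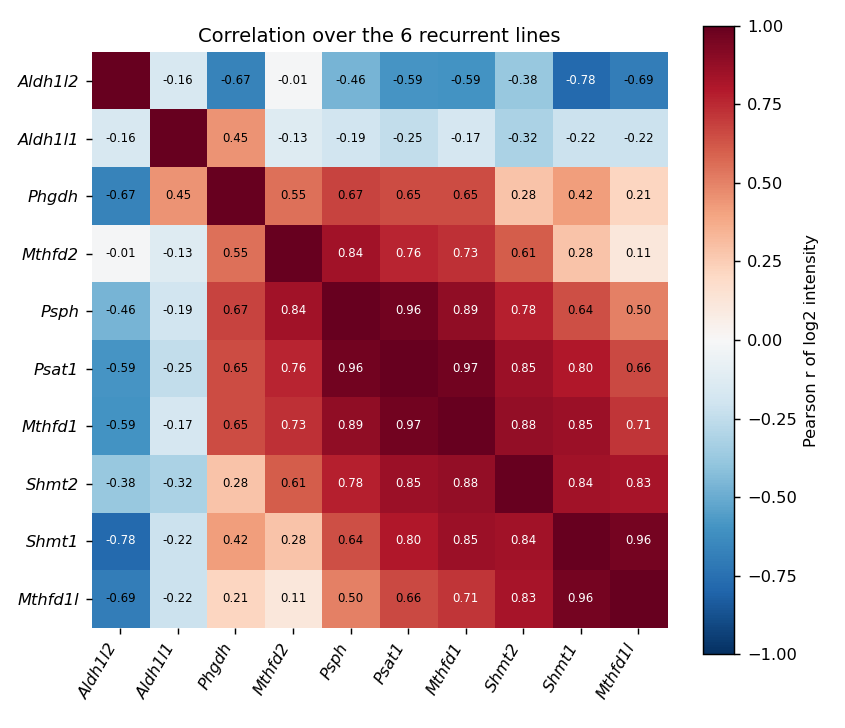
Pearson r of log2 intensity over the 6 recurrent lines (colour scale from -1 to 1) for each pair of the 10 enzyme genes. Psat1, Mthfd1, Shmt2 and Shmt1 form a block with r from 0.80 to 0.97, and the row of Aldh1l2 is at or below 0, although its r with Mthfd2 turned above 0 after quantile normalization or centring.

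The 5 genes whose values over the 6 recurrent lines were most like those of Aldh1l2, out of 15525, were Lgi3 (r = 0.99), Arhgap18 (0.99), Zbtb6 (0.989), Zfp748 (0.986) and Tent5d (0.986), ranked by r and so given with no test. Aldh1l2 itself spread less over these lines (SD 0.16) than over the parental technical arrays (SD 0.25). Lgi3 was at 10.12, 9.63 and 7.998 in the AZD1208 lines, 9.30, 8.26 and 8.26 in the vehicle lines and 7.49 in the parental sample. Arhgap18 was at 8.65, 8.18 and 7.49 in the AZD1208 lines, 8.22, 7.85 and 7.59 in the vehicle lines and 7.28 in the parental sample. Lgi3 and Arhgap18 were above the parental value in all 6 lines, whereas Zfp748 was above it in 3 and Tent5d in 4.

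Promoter sequences are shown for Shmt1, Psat1 and Shmt2, members that lay below the parental value in all 6 lines, as the 250 bases before a start listed in the RefSeq promoter table (GRCm38.p6), 5′ to 3′ on the gene's strand. For Mthfd1l, the fourth such member, the start in the RefSeq promoter table lies inside the gene, with 183 of the 250 bases past the gene's first base, so its window is not shown. Capitals mark the CCAAT box, the letters CCAAT on either strand (ATTGG on the other). Shmt1 is at chr11:60811266-60811515 (minus strand), Psat1 at chr19:15925060-15925309 (minus strand) and Shmt2 at chr10:127522445-127522694 (minus strand).
Shmt1: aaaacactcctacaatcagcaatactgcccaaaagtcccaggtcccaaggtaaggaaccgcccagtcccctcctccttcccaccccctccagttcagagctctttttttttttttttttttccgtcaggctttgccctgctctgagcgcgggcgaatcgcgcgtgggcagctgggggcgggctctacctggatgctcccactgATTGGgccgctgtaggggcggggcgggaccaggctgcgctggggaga
Psat1: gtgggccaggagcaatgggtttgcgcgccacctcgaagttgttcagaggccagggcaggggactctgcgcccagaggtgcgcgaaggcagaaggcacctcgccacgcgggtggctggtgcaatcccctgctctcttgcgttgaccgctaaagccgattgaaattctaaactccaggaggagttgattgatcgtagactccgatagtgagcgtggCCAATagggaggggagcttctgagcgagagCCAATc
Shmt2: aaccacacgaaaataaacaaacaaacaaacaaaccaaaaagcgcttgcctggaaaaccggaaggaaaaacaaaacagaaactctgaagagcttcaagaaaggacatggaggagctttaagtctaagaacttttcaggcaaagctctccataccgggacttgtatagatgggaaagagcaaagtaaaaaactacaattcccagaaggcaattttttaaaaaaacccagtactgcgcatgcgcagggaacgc

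Shmt1 held 1 CCAAT match, Psat1 held 2, and Shmt2 held 0, so the shown promoters did not share these letters. The Mthfd1l window and a second Psat1 window, which lies inside the gene, held 0. Windows were at hand for 9 members (all but Aldh1l2). Those of Mthfd1 and Mthfd2 lay wholly inside the gene, at a start that is not its first, and 190 of 250 bases lay inside it for Psph and 25 for Aldh1l1. With the second Psat1 window these made 10 windows. CCAAT was found in 7 of the 10, from 7 of the 9 genes, against 33.8% of all 32851 windows of the same length. GGGCGG, the core of a GC box, was found in 6 of the 10 windows, from 6 of 9 genes, against 32.7% of all windows. For Psat1 the GGGCGG match lay in the second window, inside the gene, and not in the window shown. TGATGNAA, the core of the element that ATF4 binds with C/EBP proteins, was found in 0 of 9 genes, against 3.45% of windows. CACGTG, the E-box that MYC and MAX bind, was also found in 0 of 9, against 6.02%. All 4 were searched on both strands, none is contained in another, and CCAAT and GGGCGG were chosen after the sequences had been read. The matches describe letters in these windows and were not tied to the differences between lines.

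The other genes of the pathway came from 3 lists. Among genes of folate uptake and of thymidylate and purine synthesis, 17 of 20 could be tested. In all 6 lines 4 were below the parental value and 0 above, against 10.9% and 11.8% of all genes tested. These 4 were Atic (-0.65) and Gart (-0.51), which use 10-formyltetrahydrofolate to build purines, Adsl (-0.37), another enzyme of purine synthesis, and Fpgs (-0.55), which traps folate in cells by adding glutamates. Slc19a1, the reduced folate carrier, differed by -0.51, with vehicle 3 above the parental value. Ggh, which removes the glutamates, differed by 0.51 with lines on both sides. The list's median difference was -0.18. Against vehicle, AZD1208 lines differed by 0.55 (SE 0.28) in Folr1, a folate receptor, and by -0.31 (SE 0.22) in Slc46a1, the proton-coupled folate transporter, neither past the threshold (limma adjusted p = 1).

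Among genes of glycine cleavage, the methionine cycle and transsulfuration, 14 of 18 could be tested, with a median of -0.02. In all 6 lines 3 were above the parental value and 1 below, against 11.8% and 10.9% of all genes tested. Amt, the aminomethyltransferase of the glycine cleavage system, was at 6.71, 9.52 and 7.15 in the AZD1208 lines, 8.26, 6.61 and 6.89 in the vehicle lines and 6.39 in the parental sample. AZD1208 2 and vehicle 1 were high and the other 4 lines lay within 1 log2 unit of the parental value. Sardh, the mitochondrial sarcosine dehydrogenase, was at 9.32, 9.08 and 8.92 in the AZD1208 lines, 9.36, 8.89 and 8.89 in the vehicle lines and 8.17 in the parental sample, so all 6 lines were higher (mean difference 0.91). Mat2b, a regulatory subunit of methionine adenosyltransferase, was the third above (0.26). Ahcy, which hydrolyses S-adenosylhomocysteine, was below in all 6 lines (-0.60), and Cth, of transsulfuration, was below in 5 (-0.40). The methionine synthase gene Mtr differed by -0.37 (SE 0.28) and its reductase Mtrr by -0.35 (SE 0.28) between AZD1208 and vehicle lines, neither past the threshold (limma adjusted p = 1).

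**Figure D4:**
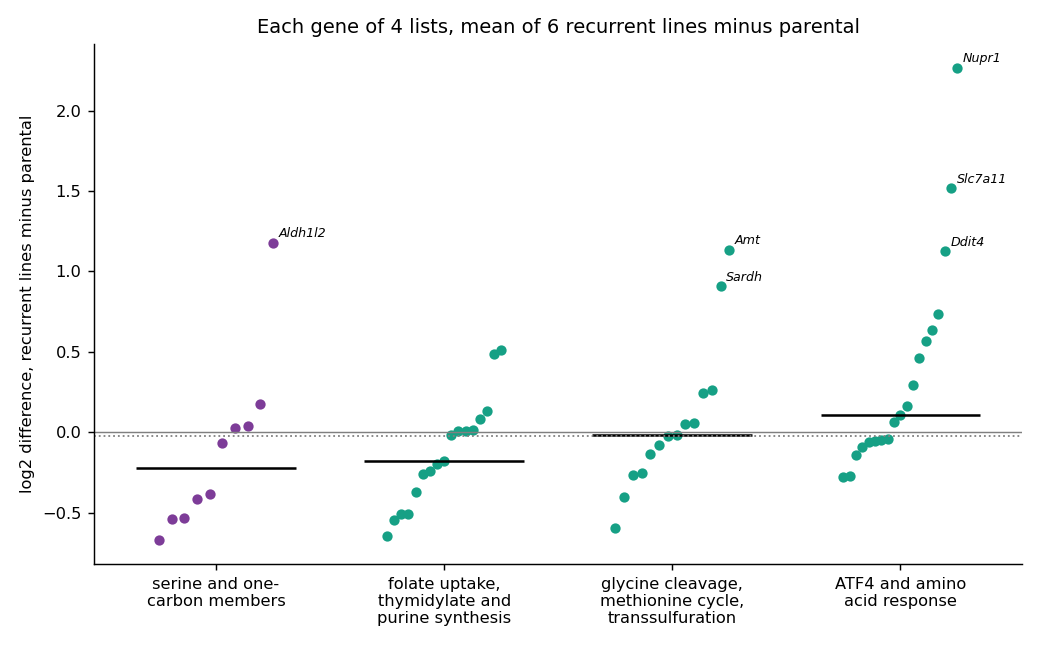
Difference in log2 intensity between the mean of 6 recurrent lines and the parental sample for each tested gene of 4 lists, ordered by value within a list, with the list median as a black line and the median of all genes tested (-0.02) as a dotted line. Aldh1l2 (1.18) stands apart from the other members, and Nupr1, Slc7a11 and Ddit4 lead the ATF4 list.

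Of 21 genes of ATF4 and the amino acid response, 19 could be tested, with 6 above the parental value in all 6 lines, 0 below and a median of 0.10. Over all genes tested, 11.8% were above in all 6 lines and 10.9% below. The recurrent mean was higher than the parental value for 11 of the 19 genes and lower for 8. Atf4 itself was at 9.07, 8.93 and 9.68 in the AZD1208 lines, 9.16, 9.53 and 9.59 in the vehicle lines and 9.26 in the parental sample, with 3 lines on either side. The stress regulator Nupr1 was higher by 2.27, the cystine transporter gene Slc7a11 by 1.52, the mTORC1 inhibitor Ddit4 by 1.13 and the neutral amino acid transporter Slc1a4 by 0.74. Ddit3, which encodes CHOP, was higher by 0.64, and the stress-induced sestrin gene Sesn2 by 0.57. Slc7a11 was at 10.34, 10.62 and 9.88 in the AZD1208 lines, against 11.39, 11.12 and 10.52 in the vehicle lines. The groups overlapped by a single line, and the difference of -0.73 (SE 0.28, unadjusted p = 0.0334) did not pass (limma adjusted p = 1). The mean of the list stood 0.21, 0.25 and 0.52 above the parental value in the AZD1208 lines and 0.43, 0.36 and 0.42 above it in the vehicle lines. Myc differed from the parental value by 0.08, with 4 lines above and 2 below. Whether the Myc probe set of this mouse array also reads the MYC transgene was not tested. Differences of these lists from the parental value are descriptions, as for the members.

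Markers of other cells that a tumour-derived line could hold also varied. Of 9 fibroblast markers tested, 4 had a higher mean in recurrent lines, and the median difference was -0.08. Of these, 3 (Postn, Pdgfra and Fbln2) were higher in all 6 lines, where 11.8% of the genes tested were. The summed log2 level of all 11 fibroblast markers was 79.0 to 87.8 in AZD1208 lines, 79.2 to 82.6 in vehicle lines and 74.44 to 74.96 on the parental arrays. Dcn and Lum were under the filter on dim genes. In AZD1208 2, Dcn was at 6.68, against 5.47, 5.41 and 5.22 on the parental arrays. Lum was at 4.58 in that line, against 4.84, 4.58 and 4.63. The mean of the 9 tested markers relative to the parental value was highest in AZD1208 2 (1.33) and vehicle 1 (0.91), the lines in which the 9 members other than Aldh1l2 were lowest. In AZD1208 2, Postn (12.72), Pdgfrb (9.78), Pdgfra (9.84) and Fbln2 (8.18) were above the parental arrays. Col1a2 (6.84), Col3a1 (6.61), Thy1 (6.82) and Twist2 (8.38) were below them there, and Col1a1 (7.33) was within their range. Col3a1, Thy1 and Twist2 were below the parental arrays in vehicle 1 as well. For 7 leukocyte markers the sum was 40.8 to 42.8 in AZD1208 lines, 40.95 to 44.0 in vehicle lines and 40.8 to 41.6 on the parental arrays, with Ptprc, Adgre1, Itgam and Lyz2 under the filter. Lyz2, a lysozyme gene of macrophages and neutrophils, was at 5.18, 6.42 and 4.74 in the AZD1208 lines, 7.10, 6.97 and 4.80 in the vehicle lines, and 5.36, 4.96 and 5.23 on the parental arrays. Cd68, a macrophage marker, was at 7.11, 8.08 and 7.24 in the AZD1208 lines, 7.57, 7.39 and 7.24 in the vehicle lines, and 7.04, 7.03 and 7.06 on the parental arrays, so all 6 lines were higher. Both genes, singled out after their values were seen, had their 3 highest values in AZD1208 2 and vehicle 1, the lines lowest in the 9 enzymes, and in vehicle 2. Csf1r, Cd3e and Itgam went the other way, with their 3 lowest line values in these same lines. Ptprc and Adgre1 were highest in vehicle 1 and vehicle 2, and Ptprc was lowest in AZD1208 2 (4.49). For 5 endothelial markers the sum was 30.4 to 31.6 in AZD1208 lines, 30.04 to 31.21 in vehicle lines and 31.2 to 31.5 on the parental arrays, with Tek under the filter. Without detection calls no marker can be called absent, and the part of other cells in the enzyme values was not tested.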

How the data were processed

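The authors deposited a log2 intensity for every probe set on each array. Their processing notes name the tool oligo, per the labels, and neither a version nor a normalization or summary method is stated there. The number of arrays limits the precision. Of 41345 probe sets, 23521 had 1 gene symbol in the platform annotation, 1814 had several and 16010 were unnamed. A gene with several probe sets was represented by its brightest on average. The 30% of named genes with the lowest mean (below 5.82) were left out, which left 15526 of 22180.

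The 3 parental arrays were averaged into 1 sample. A per-gene model of group alone was fitted to the 7 samples (limma 3.58.1, R 4.3.3), leaving 4 residual and 3.37 prior degrees of freedom. Benjamini-Hochberg adjustment ran over all 15526 genes, and an adjusted p under 0.05 was called. P-values cover the spread among these lines alone, which the labels call biological replicates. No line was repeated on another array, so the technical part of that spread is not known. The lone parental sample is assumed to vary like the lines. Correlations used two-sided exact permutation tests.

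Vehicle and AZD1208 lines share replicate numbers. Deviations from the group means correlated over genes at 0.147, 0.119 and 0.531 for lines with the same number, all above 0.1. These values do not establish a pairing, since AZD1208 2 gave 0.263 with vehicle 1 and 0.119 with vehicle 2. No label states a pairing either. The main fit therefore had no block, and the correlation tests shuffled all 6 lines freely. A separate fit took the replicate number into account. The members and lists were chosen with earlier results of these data known. Named are all members, from each list the up to 4 genes with the largest difference from the parental value and the up to 2 with the smallest unadjusted p against vehicle, Atf4, Ddit3 and Myc, and the 5 genes most like Aldh1l2. Gart, Adsl and Mat2b were added after their values were seen, as were genes of the marker lists outside that rule.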

Additional observations from a re-analysis of the deposited data

How the results depend on the processing

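The alternatives were quantile normalization, centring on the array median, no filter on dim genes, array quality weights, the mean of probe sets, the replicate number as a block, only the 6 recurrent lines, and each line left out. In all 13 no gene and no member passed for AZD1208 against vehicle (limma), and the replicate block changed no call. The Aldh1l2 difference from the parental value was between 1.136 and 1.234 with single lines left out, and its AZD1208 minus vehicle difference between 0.01 and 0.207, or 0.245 with array quality weights. Members above the parental value in every line numbered 1 to 2 with single lines left out, and members below 4 to 5. Pairs of the other 9 members past the threshold numbered 0 after quantile normalization and 0 after centring, against 2 as deposited, alternatives chosen after seeing the data; the cause was not tested. AZD1208 minus vehicle differences of members turned their sign under some alternatives, none past the threshold, and the cause was not tested. With single lines left out they ranged from -0.213 (without vehicle 2) to 0.155 for Aldh1l1, from -0.46 to 0.008 (without AZD1208 2) for Mthfd1 and from -0.244 (without vehicle 1) to 0.301 for Mthfd1l. The range was -0.37 to 0.109 (without AZD1208 2) for Mthfd2, -0.552 to 0.143 (without vehicle 3) for Shmt1 and -0.187 (without vehicle 1) to 0.332 for Shmt2. It was -0.402 to 0.115 for Psat1 and -0.266 to 0.175 for Psph, with both upper values found without AZD1208 2. Phgdh stayed below 0 in all 13 alternatives, from -0.45 without AZD1208 3 to -0.135 without AZD1208 2. Without AZD1208 3 its unadjusted limma p was 0.0405, and it did not pass after adjustment. With quantile normalization Aldh1l1 was at -0.039, and with centring at -0.032. With array quality weights Aldh1l1 was at -0.071, Mthfd1l at -0.167 and Mthfd2 at 0.11.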
